A study of Mus musculus with 8 samples.

Results

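The genes of the major histocompatibility complex (MHC) and the machinery that loads their products with peptide were described in tendon stem cells (TSCs) from mouse. The set was fixed by name as every gene whose symbol begins with H2-, together with B2m, Tap1, Tap2, Tapbp, Psmb8, Psmb9, Psmb10, Nlrc5, Ciita, Cd74 and Erap1, which gave 45 of the 19301 genes in the expression table. Of these, 24 were class I H2 genes, 9 were class II H2 genes, 11 were machinery genes, and H2-Ke6 lies in the region by name but encodes a metabolic enzyme. TSCs were primary cells isolated from the patellar tendon of C57BL/6J mice, and no genetic change is described for the sequenced cells. They were cultured for 4 days in low glucose medium (LG, 5.5 mM glucose with DMSO as the vehicle) or in high fat, high glucose medium (HFHG, raised glucose with palmitic acid), with 4 libraries for each medium. The mouse each replicate came from is not given in the sources used here, so the p-values measure the spread between these libraries, and a culture on plastic contains whatever cells grew from the digested tendon.

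Class I molecules are a heavy chain paired with beta-2-microglobulin, and they display peptides cut from proteins of the cell's own cytosol to CD8 T cells. The peptides are cut by the proteasome, carried into the endoplasmic reticulum by the transporter TAP, trimmed there and loaded with the help of tapasin. Class II molecules are an alpha and a beta chain, held by the invariant chain until they meet peptides from endosomes, and they are best known from B cells, dendritic cells and macrophages. Interferon gamma is the classic inducer of both arms in stromal cells such as fibroblasts.

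Expression was measured as FPKM, the number of fragments scaled by the length of the gene and the size of the library. Each library held 34308108 to 37362725 reads. A gene was tested when it reached 0.5 FPKM in at least 4 libraries, which 29 of the 45 genes and 11710 of all 19301 genes did. Differences are log2(FPKM + 0.1) in HFHG minus LG, tested by limma with the Benjamini-Hochberg adjustment over all tested genes, and a gene was called when its adjusted p was below 0.05. In these libraries 64.8% of all tested genes were called, 34% as higher and 30.8% as lower in HFHG, and the median difference of all genes was 0.02. Among the 29 tested members 18 were called, 8 as higher and 10 as lower, so the share called was near the background. The study's thresholds, a fold change above 2 with p below 0.05, were applied to this limma fit, so the counts are not the study's own. They were met by 5.33% of all tested genes, and Cd74 was the single member past them. LG replicate 4 stood apart from the other libraries on the second principal component of all genes, and the member whose call rests on it, H2-Ab1, is given with and without it. Fewer cells of a type and less RNA per cell cannot be told apart in such bulk libraries.

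**Figure D1:**
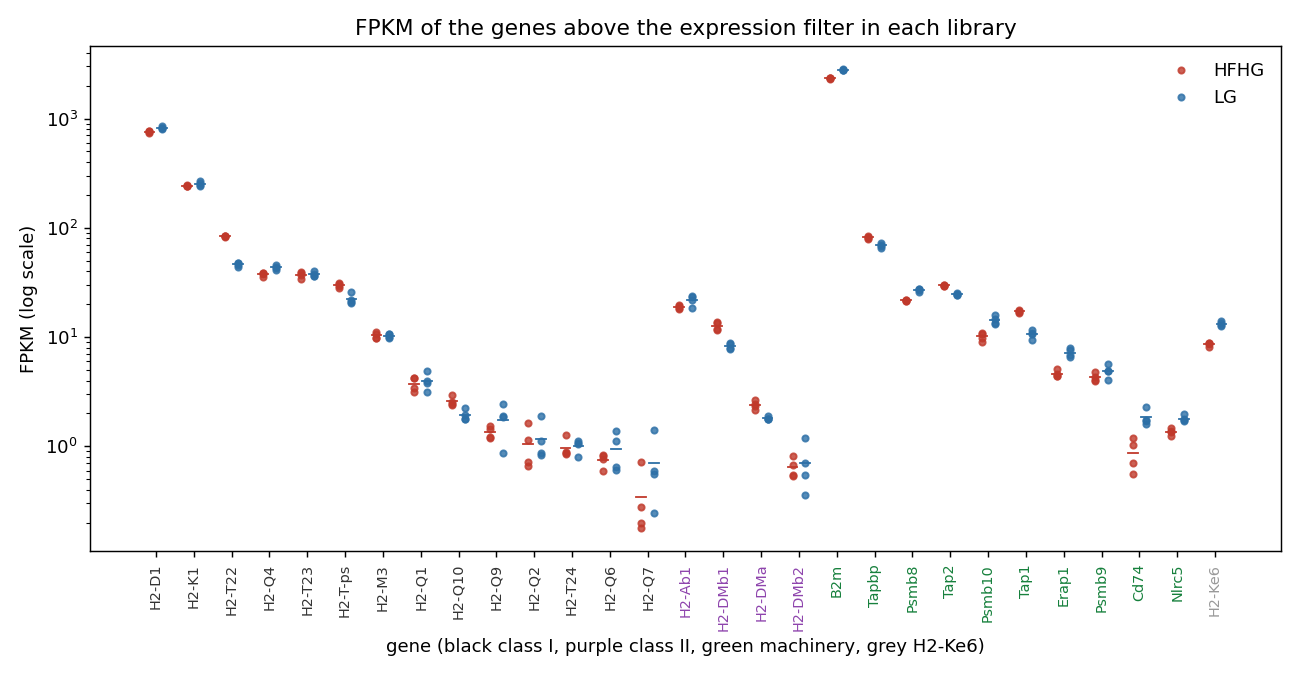
FPKM on a log scale for the 29 genes above the expression filter, with a point for each of the 4 HFHG and 4 LG libraries and a bar at the group mean. B2m stands highest, at 2285 to 2846 FPKM, and the class II and regulator genes lie far below the class I genes H2-D1 and H2-K1. H2-T22 shows the widest separation of the groups relative to their spread, with 82.6 to 84.2 FPKM in HFHG and 44 to 47.7 in LG.

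The DNA directly upstream of 5 genes is shown, in 4 stretches, because their differences between the media were unlike. H2-Q4 was lower in HFHG and H2-T22 was higher, while H2-D1 was slightly lower with a direction that turned under quantile normalization. Psmb9 and Tap1 stand back to back and share the 225 bases between them, yet Tap1 was higher and Psmb9 was not called. The sequences are from RefSeq on build GRCm38.p6, read 5′ to 3′ along the named gene's strand, and they end at the base before the gene's start. H2-D1 is the plus strand of chr17:35262894-35263093, H2-Q4 the plus strand of chr17:35379417-35379616, H2-T22 the minus strand of chr17:36042743-36042942, and the shared stretch the plus strand of chr17:34187331-34187555. No RefSeq gene overlaps any of them. Capitals mark matches, on either strand, to GAAANNGAA (the core of the interferon-stimulated response element), GGGNNTTCC (an NF-kB site) and CCAAT (the Y box), and no marked matches overlap.
H2-D1: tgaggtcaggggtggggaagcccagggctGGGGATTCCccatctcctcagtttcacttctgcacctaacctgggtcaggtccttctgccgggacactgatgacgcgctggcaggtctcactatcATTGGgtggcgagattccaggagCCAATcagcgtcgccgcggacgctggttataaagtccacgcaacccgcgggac
H2-Q4: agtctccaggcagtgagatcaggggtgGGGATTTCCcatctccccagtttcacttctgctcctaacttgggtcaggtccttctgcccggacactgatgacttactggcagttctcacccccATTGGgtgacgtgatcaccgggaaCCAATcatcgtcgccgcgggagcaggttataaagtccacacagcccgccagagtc
H2-T22: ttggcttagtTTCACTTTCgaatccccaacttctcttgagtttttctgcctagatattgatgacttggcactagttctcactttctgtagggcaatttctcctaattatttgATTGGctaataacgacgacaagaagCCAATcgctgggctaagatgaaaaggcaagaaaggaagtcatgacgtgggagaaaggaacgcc
between Psmb9 and Tap1: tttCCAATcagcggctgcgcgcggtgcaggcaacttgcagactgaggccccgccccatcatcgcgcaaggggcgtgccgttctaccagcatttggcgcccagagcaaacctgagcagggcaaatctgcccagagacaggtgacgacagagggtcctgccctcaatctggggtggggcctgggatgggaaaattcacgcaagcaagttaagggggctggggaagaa

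The H2-D1 and H2-Q4 stretches were alike, with 79.4% identical columns in a global alignment, while H2-T22 matched H2-D1 in 48.2% and H2-Q4 in 46.1%. In H2-D1 and H2-Q4 the capitals mark an NF-kB site followed by a Y box on each strand. In H2-T22 they mark an interferon-stimulated response element core and no NF-kB site, again with a Y box on each strand. The search took exact letters only. H2-D1 and H2-Q4 both hold ttcacttct, close to the marked ttcactttc of H2-T22, and it was left unmarked. The contrast in marks therefore does not show that H2-D1 and H2-Q4 lack an interferon element. The stretch between Psmb9 and Tap1 held a single Y box, next to Psmb9. A RefSeq window was found for 37 of the 45 genes, counted without chromosome 18, where Cd74 lies. Counted with that chromosome there were 40 windows in all, and the 250 bases before each start were searched. The Y box was found in 33 of the 40 windows and in 33.85% of the 32851 windows of all genes. The NF-kB letters were found in 9 of the 40 against 4.98% of all windows, in H2-K1, H2-D1, H2-Q4, H2-Q6, H2-Q7, H2-M2, H2-Aa and H2-Oa. The interferon element core was found in 4 of the 40 against 7.13%, in B2m, Erap1, H2-T23 and H2-T22. Among these 4, B2m (-0.26) and Erap1 (-0.63) were lower in HFHG, H2-T23 (-0.02) was not called and H2-T22 (0.86) was higher. Of the genes with NF-kB letters, H2-D1 and H2-Q4 were lower. H2-K1, H2-Q6 and H2-Q7 were not called, and the others lay below the filter. The printed genes were chosen for their unlike differences, and no link between marks and differences was tested. Many of these genes are related copies, so their windows are not independent. A match is a stretch of letters and not a measured binding site, and a window without a match may hold a variant of the site.

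Among the class I genes, the classical heavy chains H2-D1 and H2-K1 were abundant in both media and moved little, H2-Q4 was somewhat lower in HFHG, and H2-T22 was 1.81 times as high. Of the 14 class I genes tested, 3 were higher, 2 were lower and 9 were not called, beside 64.8% called among all genes. Their median difference was -0.07 against 0.02 for all genes. H2-D1, a classical heavy chain on chromosome 17 (35263094 to 35267497, plus strand), measured 752, 771, 771 and 741 FPKM in the HFHG libraries and 826, 795, 813 and 846 in the LG libraries. Every HFHG value lay below every LG value, by a small margin. The difference was -0.11 ± 0.0238 (SE, limma adjusted p = 0.00119), but it turned to 0.23 (adjusted p = 4.57e-08) when the libraries were quantile normalized, so its direction depends on the scaling. H2-K1, the other classical heavy chain of this strain, measured 247, 241, 239 and 242 FPKM in HFHG and 258, 243, 247 and 268 in LG. Those groups overlapped, and the difference of -0.07 ± 0.0301 was not called (limma adjusted p = 0.0661). It passed the threshold without LG replicate 2 (adjusted p = 0.0205), without LG replicate 3 (0.0493) and with median-ratio scaling (0.0115), and it turned to 0.06 with quantile normalization (adjusted p = 0.0513).

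H2-T22, a nonclassical class I gene known as a ligand of some gamma delta T cell receptors, lies on chromosome 17 (36037128 to 36042742, minus strand). It measured 82.6, 83.5, 84.2 and 83.9 FPKM in HFHG and 47.2, 44, 45.7 and 47.7 in LG. No other tested member had a smaller adjusted p, with a difference of 0.86 ± 0.0292 (limma adjusted p = 7.09e-11) that ran from 0.82 to 0.92 over all other settings and left-out libraries. In GENCODE 29.4% of its exon bases overlap A930015D03Rik on the opposite strand. Of its 100-base windows 6.9% also occur in H2-T10, a name absent from the expression table, so H2-T10 could not be set beside it. Whether the counting used the strand is not given in the sources used here, so reads of these genes may be mixed.

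H2-Q4, a nonclassical gene of the Q region, measured 37.5, 35.4, 38.3 and 38.6 FPKM in HFHG and 44.2, 43, 45.2 and 41.5 in LG, with no overlap. It was lower in HFHG by every setting tried, with a difference of -0.22 ± 0.0368 (limma adjusted p = 0.000225), and 19.1% of its exon bases overlap Gm11131 on the opposite strand. H2-Q10, known as a secreted class I molecule of the liver, was low in both media, at 2.56, 2.94, 2.45 and 2.38 FPKM in HFHG and 2.22, 1.76, 1.76 and 1.95 in LG. It was higher in HFHG by 0.41 ± 0.0967 (limma adjusted p = 0.00244). H2-T-ps, a pseudogene by name, measured 28.3 to 31.4 FPKM in HFHG and 20.3 to 26 in LG, a difference of 0.43 ± 0.0671 (limma adjusted p = 0.000108). H2-Q10 shares 6.4% of its 100-base windows with H2-Q7, and H2-T-ps shares 5% with H2-Q1, so some of their reads may belong to relatives.

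Neither H2-T23, the Qa-1 heavy chain that shows leader peptides to natural killer cell receptors, nor H2-M3, which binds formylated peptides, was called. H2-T23 measured 34 to 39.3 FPKM in HFHG and 36 to 40.1 in LG, a difference of -0.02 ± 0.0478. H2-M3 measured 9.8 to 11.2 FPKM in HFHG and 9.7 to 10.7 in LG, a difference of 0.02 ± 0.054. For both, the values of the media overlapped throughout. H2-Q7 and H2-Q9, which encode the Qa-2 antigen, were low and scattered. H2-Q7 measured 0.714, 0.276, 0.199 and 0.178 FPKM in HFHG and 0.247, 0.556, 0.588 and 1.41 in LG, a difference of -0.80 ± 0.415 that was not called (limma adjusted p = 0.107). It was called without HFHG replicate 1 (adjusted p = 0.0217), without LG replicate 1 (0.0214) and with quantile normalization (0.0467). H2-Q9 measured 1.19 to 1.55 FPKM in HFHG and 0.862 to 2.45 in LG, and its difference of -0.28 (adjusted p = 0.306) was called at -0.57 without LG replicate 3, the lowest LG value (adjusted p = 0.00261). H2-Q6, H2-Q1, H2-Q2 and H2-T24 had differences of -0.22, -0.06, -0.17 and -0.06, none of them called, and each group's values overlapped the other's. H2-Q7 shares 13.5% and H2-Q6 shares 10.8% of its 100-base windows with other genes.

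B2m, the light chain shared by all class I molecules, ranked 6 among all genes by mean FPKM and was lower in HFHG. It lies on chromosome 2 (122147687 to 122153082), outside the MHC. B2m measured 2364, 2285, 2332 and 2330 FPKM in HFHG and between 2758 and 2846 in LG, so the groups stood well apart. The ratio of the means was 0.832 and the difference was -0.26 ± 0.0194 (limma adjusted p = 1e-07), although under quantile normalization it shrank to -0.02 and was no longer called (adjusted p = 0.225). B2m took 0.196% to 0.245% of the reads of a library. Within a library the FPKM of B2m was 3.07 ± 0.0895 (SD, n = 4) times that of H2-D1 in HFHG and 3.41 ± 0.128 times in LG.

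Of the 10 machinery genes tested, B2m among them, 3 were higher, 6 were lower and 1 was not called. Among all genes 34% were higher and 30.8% lower. The median difference of the machinery genes was -0.29 against 0.02 for all genes. The genes of peptide transport and tapasin were all higher in HFHG. Tap1, a chain of the TAP transporter, measured 17.1, 16.7, 17.7 and 17.4 FPKM in HFHG and 11.7, 9.43, 10.7 and 10.8 in LG. The groups were far apart and the difference was 0.69 ± 0.0578 (limma adjusted p = 3.51e-07). Tap2, the partner chain, measured 29.3, 30.2, 29.9 and 29.4 FPKM in HFHG and 24.7 ± 0.611 (SD, n = 4) in LG with no overlap, a smaller difference of 0.27 ± 0.0311 (limma adjusted p = 7.6e-06). Tapbp, which encodes tapasin, measured 82.5, 84.5, 78.6 and 80.9 FPKM in HFHG and 72.9, 65.2, 68.6 and 70.1 in LG. Its difference was 0.24 ± 0.0357 (limma adjusted p = 7.25e-05). For Tap2, 18.5% of the exon bases overlap Gm15821, and for Tapbp 29% overlap Gm19412, both on the opposite strand. The general chaperones of the loading complex, which lie outside the set, differed in the other direction. Of the 6 listed loading and channel genes, 5 were lower, beside 30.8% of all genes, and none was higher. Their median difference was -0.44 against 0.02 for all genes. Calr (calreticulin) measured 1003 to 1051 FPKM in HFHG and 1760 to 1851 in LG, with a difference of -0.80. Pdia3, a thiol oxidoreductase of the loading complex, and Canx (calnexin) had differences of -0.67 and -0.62, while Tapbpl, a relative of tapasin that edits peptides, measured 5.3 ± 0.365 FPKM in HFHG and 5.31 ± 0.523 in LG (SD, n = 4).

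The immunoproteasome subunits and the trimming enzyme were lower or not called, in contrast to the transporter. Psmb8, Psmb9 and Psmb10 are the catalytic subunits that take the place of Psmb5, Psmb6 and Psmb7 in the immunoproteasome. Psmb10 measured 11, 10.7, 9.82 and 9.07 FPKM in HFHG and 14.7, 13.1, 13.4 and 16 in LG. Every HFHG value lay below every LG value, with a difference of -0.49 ± 0.0732 (limma adjusted p = 7.44e-05). Psmb8 measured 22, 21.9, 21.6 and 21.3 FPKM in HFHG and 27.3, 26, 26.7 and 27.6 in LG, a difference of -0.31 ± 0.0321 (limma adjusted p = 2.83e-06), and 14.7% of its exon bases overlap Gm20496 on the opposite strand. Psmb9 measured 4.03, 4.81, 4.3 and 3.92 FPKM in HFHG and 4.91, 4.02, 5.67 and 4.86 in LG, with overlap, and its difference of -0.18 ± 0.0974 was not called (limma adjusted p = 0.123). It was called without LG replicate 2 (-0.27, adjusted p = 0.0175) and with quantile normalization (-0.26, adjusted p = 0.0403).

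Of the subunits they replace, Psmb5 was lower in HFHG as well, by -0.33, while Psmb6 (0.03, limma adjusted p = 0.531) and Psmb7 (-0.04, adjusted p = 0.34) were not called. Within each library, the FPKM ratio of Psmb8 to Psmb5 was 0.272 ± 0.00648 (SD, n = 4) in HFHG and 0.268 ± 0.0138 in LG. The ratio of Psmb10 to Psmb7 was 0.0879 ± 0.00626 in HFHG and 0.121 ± 0.0104 in LG, with no overlap. Psmb9 amounted to 0.0494 ± 0.00492 of Psmb6 in HFHG and 0.0578 ± 0.00912 in LG, and those values overlapped. By FPKM the constitutive subunits were the more abundant form in all 8 libraries. Of the 5 proteasome activator and assembly genes, 1 was higher, 3 were lower and 1 was not called, beside 64.8% called among all genes. Psme1, a chain of the PA28 activator that interferon gamma induces, differed by -0.24, Psme4, another activator, by 0.20, and Psme3 by -0.11. Erap1, the aminopeptidase that trims peptides in the endoplasmic reticulum, measured 5.09, 4.4, 4.39 and 4.6 FPKM in HFHG and 6.81, 7.89, 7.56 and 6.58 in LG, with a difference of -0.63 ± 0.0714 (limma adjusted p = 6.17e-06). Of its exon bases 11.5% overlap Cast on the opposite strand.

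Tap1 and Psmb9 start back to back on opposite strands of chromosome 17, Tap1 at 34187556 and Psmb9 at 34187330, with the 225 bases printed above between them. The FPKM ratio of Tap1 to Psmb9 was 4.25, 3.48, 4.12 and 4.43 in the HFHG libraries and 2.39, 2.35, 1.89 and 2.22 in the LG libraries. The lowest HFHG ratio was above the highest LG ratio, and on the log2 scale the media differed by 0.88. The ratio of Tap1 to Tap2 was 0.58 ± 0.018 (SD, n = 4) in HFHG and 0.432 ± 0.0373 in LG. In GENCODE 5.8% of the exon bases of Psmb9 overlap Tap1 and 3.9% of those of Tap1 overlap Psmb9.

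**Figure D2:**
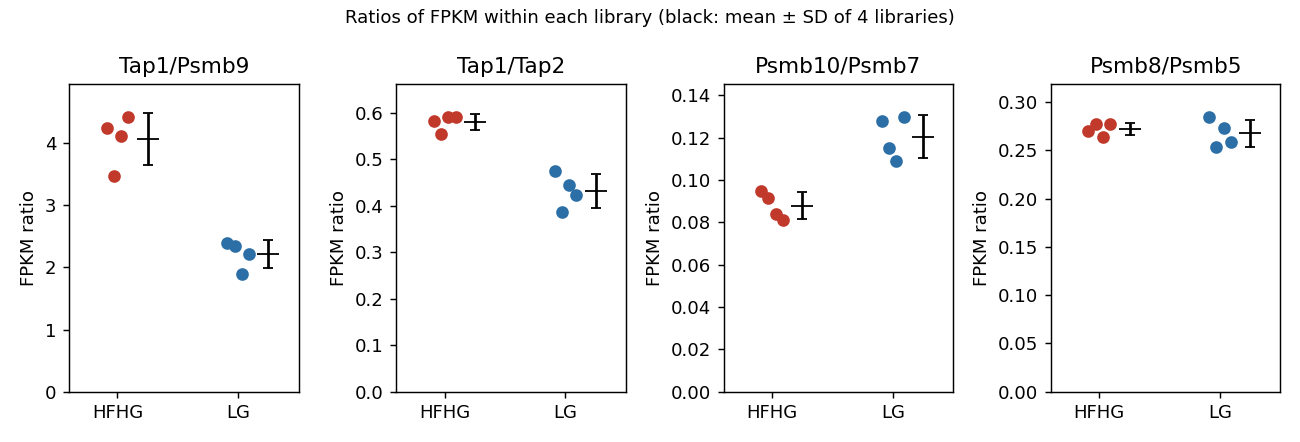
FPKM ratios within each library for Tap1 to Psmb9, Tap1 to Tap2, Psmb10 to Psmb7 and Psmb8 to Psmb5, with a point for each of the 4 HFHG and 4 LG libraries and the mean ± SD in black, each axis starting at 0. The Tap1 to Psmb9 ratio was 3.48 to 4.43 in HFHG and 1.89 to 2.39 in LG, whereas the Psmb8 to Psmb5 ratio overlapped between the media.

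The class II genes did not move together. The peptide editors H2-DMa and H2-DMb1 were higher in HFHG, the invariant chain Cd74 was lower, and the beta chain H2-Ab1 was slightly lower with a call that depended on single libraries. Of the 9 class II genes 4 were tested. Of these 2 were higher, 1 was lower and 1 was not called, beside 64.8% called among all genes. Their median difference was 0.18 against 0.02 for all genes. H2-DMa and H2-DMb1 encode the chains of H2-M, which exchanges the invariant chain fragment for peptide. H2-DMb1 measured 13.8, 13.4, 11.9 and 11.6 FPKM in HFHG and 8.85, 8.56, 7.93 and 7.83 in LG. The groups were clear of each other, with a difference of 0.60 ± 0.0636 (limma adjusted p = 3.16e-06). H2-DMa measured 2.63, 2.17, 2.36 and 2.43 FPKM in HFHG and 1.79, 1.78, 1.9 and 1.76 in LG, a difference of 0.39 ± 0.0805 (limma adjusted p = 0.00101). The FPKM of H2-DMa was worked out over 8325 bases, while GENCODE gives it 3448 exon bases and a longest transcript of 2005. Of those exon bases 10.4% overlap Brd2. Which reads the extra bases brought in is not known. The level of H2-DMa therefore cannot be set beside that of H2-DMb1, and its difference may include reads of other genes. H2-DMb2, the second copy of the beta chain, measured 0.531 to 0.815 FPKM in HFHG and 0.36 to 1.19 in LG and was not called (-0.02 ± 0.261). It shares 12.9% of its 100-base windows with H2-DMb1.

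H2-Ab1, the beta chain of the I-A molecule, measured 18.1, 19.6, 18.6 and 19.3 FPKM in HFHG and 23.4, 18.3, 21.7 and 23.9 in LG. LG replicate 2 lay within the HFHG values and the other LG libraries above them. The difference was -0.20 ± 0.0708 (limma adjusted p = 0.0259), and the adjusted p rose to 0.0672 without HFHG replicate 1, 0.0553 without HFHG replicate 3, 0.0764 without LG replicate 1 and 0.08 without LG replicate 4. Its partner, the alpha chain H2-Aa, was close to 0, with 6, 2, 2 and 8 reads in the HFHG libraries and 8, 5, 11 and 6 in the LG libraries. By FPKM, H2-Ab1 stood 99.5 to 391 times above H2-Aa in HFHG and 78.7 to 160 times in LG. The alpha chain was present at a trace in every library in which the beta chain was measured at about 20 FPKM.

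Cd74, the invariant chain, had the largest fold change among the 29 tested members at the pseudocount of 0.1 FPKM, and it had few reads. It measured 1.02, 0.699, 1.2 and 0.561 FPKM in HFHG, from 54, 35, 61 and 29 reads, and 1.71, 2.3, 1.74 and 1.61 FPKM in LG, from 83, 118, 87 and 81 reads. All HFHG values lay below all LG values, and the difference was -1.04 ± 0.194 (limma adjusted p = 0.000453). With a pseudocount of 1 FPKM in place of 0.1 it was -0.61, still called but no longer past a fold of 2 and smaller in size than that of H2-T22. The proteases that cut the invariant chain and antigen in endosomes were lower in HFHG too. Their list also holds the thiol reductase Ifi30 and ubiquitin ligases of class II. Of the 7 genes tested on that list, 7 were lower, beside 30.8% of all genes, and none was higher. The median difference was -0.35. Ctsb measured 1212 to 1230 FPKM in HFHG and 1822 to 1881 in LG (-0.59), Ctsd differed by -0.37, and Ctss, the cathepsin that takes the last step on the invariant chain, measured 118 to 123 FPKM in HFHG and 161 to 169 in LG (-0.44).

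Most but not all markers of macrophages, which express class II genes, Cd74 and Ctss, moved in the same direction as these genes. All 16 listed leukocyte and macrophage markers were in the table and 15 were tested. Of these 11 were lower in HFHG, beside 30.8% of all genes, 4 were not called and none was higher. The tested markers had a median difference of -0.52. Their summed FPKM without Lyz2 was 196 to 201 in HFHG and 284 to 300 in LG, and Lyz2 alone measured 1615 to 1662 and 1736 to 1811. C1qa, a chain of complement C1q, measured 18.1 to 19.1 FPKM in HFHG and 33.9 to 39.8 in LG (-0.97), Mrc1 differed by -0.86 and C1qc by -0.78. Cd68 differed by -0.31, Ptprc, the pan-leukocyte marker, by -0.19 without a call (limma adjusted p = 0.0886), and Cd163 was near 0 in all libraries. Spi1 (-0.13, limma adjusted p = 0.236), Mertk (-0.01, 0.946) and Fcgr1 (0.09, 0.599) were not called either. The part of these cells in the values of Cd74, H2-Ab1 and the cathepsins was not tested. H2-DMa and H2-DMb1 moved against most of these markers. The 9 dendritic cell markers summed to 1.57 to 1.81 FPKM in HFHG and 1.61 to 1.91 in LG, most of it from Itgax, the 6 B cell markers to at most 0.307, and the 6 T and natural killer cell markers in the table to at most 0.326. Endothelial markers summed to 1.52 to 1.64 FPKM in HFHG and 1.86 to 2.15 in LG, and of the 2 tested Tek was higher (0.47) and Vwf lower (-1.20). Tendon cell and fibroblast markers were abundant, at 2619 to 2668 FPKM in HFHG and 1727 to 1754 in LG. Of 12 tested, 10 were higher in HFHG, beside 34% of all genes, led by Col1a1 (1.36), Pdgfra (1.20) and Thbs4 (1.14), and 1 was lower. Tnmd, a defining marker of the tendon lineage, was low, at 1.1 ± 0.0908 FPKM in HFHG and 0.614 ± 0.298 in LG (SD, n = 4).

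The master regulators of the 2 classes were both weakly expressed. Nlrc5, the class I transactivator, measured 1.24, 1.37, 1.35 and 1.47 FPKM in HFHG and 1.76, 1.96, 1.73 and 1.7 in LG, with a difference of -0.37 ± 0.0896 (limma adjusted p = 0.00273). Ciita, the class II transactivator, had 13, 19, 13 and 24 reads in HFHG and 26, 20, 23 and 8 in LG, and the groups overlapped (two-sided exact permutation test, p = 0.686). Both act through a complex of RFX and NF-Y proteins on the promoters of MHC genes. Of the 13 listed regulators, 6 were higher, 1 was lower and 6 were not called, beside 34% higher and 30.8% lower among all genes. Their median difference was 0.09. Nfyc differed by -0.58 and Rfxank by 0.39. Irf1, which drives class I genes after interferon, was not called (0.04, limma adjusted p = 0.583).

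Interferon gamma itself was at or near 0, with 1 read in each of 2 HFHG libraries and none elsewhere. Of the genes of its receptor and signal, 3 were higher, 3 were lower and 3 were not called, with Jak1 at -0.89, Ifngr1 at 0.48 and Socs3, an inhibitor of cytokine signalling, at -0.41. On the type I interferon list, 4 of 7 were higher and 2 were lower, with Irf7 at 0.48 as the largest difference, followed by Stat2 at -0.28 and Irf3 at 0.19. Of 28 interferon response genes tested, 10 were higher, 9 were lower and 9 were not called, with a median of -0.02 against 0.02 for all genes, which is near the 34% higher and 30.8% lower among all genes. Gbp5, a guanylate-binding protein, differed by 1.23, the chemokine gene Cxcl9 by 0.61 and Oasl1 by -0.46.

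Class I like genes outside the H2 names and the ligands that accompany antigen presentation were called in both directions, beside 64.8% called among all genes. Of 8 class I like genes tested, 3 were higher and 2 were lower, with a median of -0.01 against 0.02 for all genes. Ulbp1, a ligand of the receptor NKG2D, differed by 1.10, Fcgrt, the heavy chain of the neonatal Fc receptor, by 0.55, and Raet1e, another NKG2D ligand, by -0.37. Among 8 costimulatory and inhibitory ligands tested, 3 were higher and 3 were lower, with a median of -0.07. Icosl, the ligand of the costimulatory receptor ICOS on T cells, differed by 1.07, Cd80 by 0.96 and Tnfsf9 by -0.86.

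**Figure D3:**
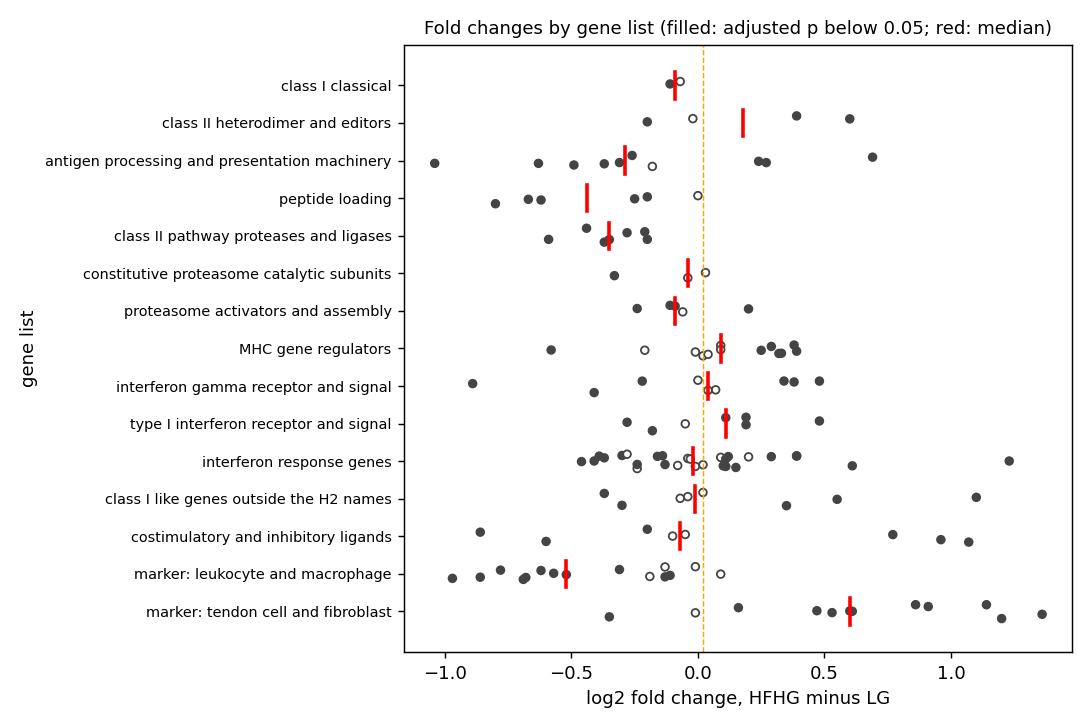
Log2 fold change of HFHG minus LG for the tested genes of each list, a point for each gene, filled where the limma adjusted p was below 0.05, with a red bar at the list median and a dashed line at the median of all genes (0.02). The peptide loading list (median -0.44), the class II proteases (-0.35) and the macrophage markers (-0.52) lie to the left, and the tendon cell list (0.60) to the right.

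**Figure D4:**
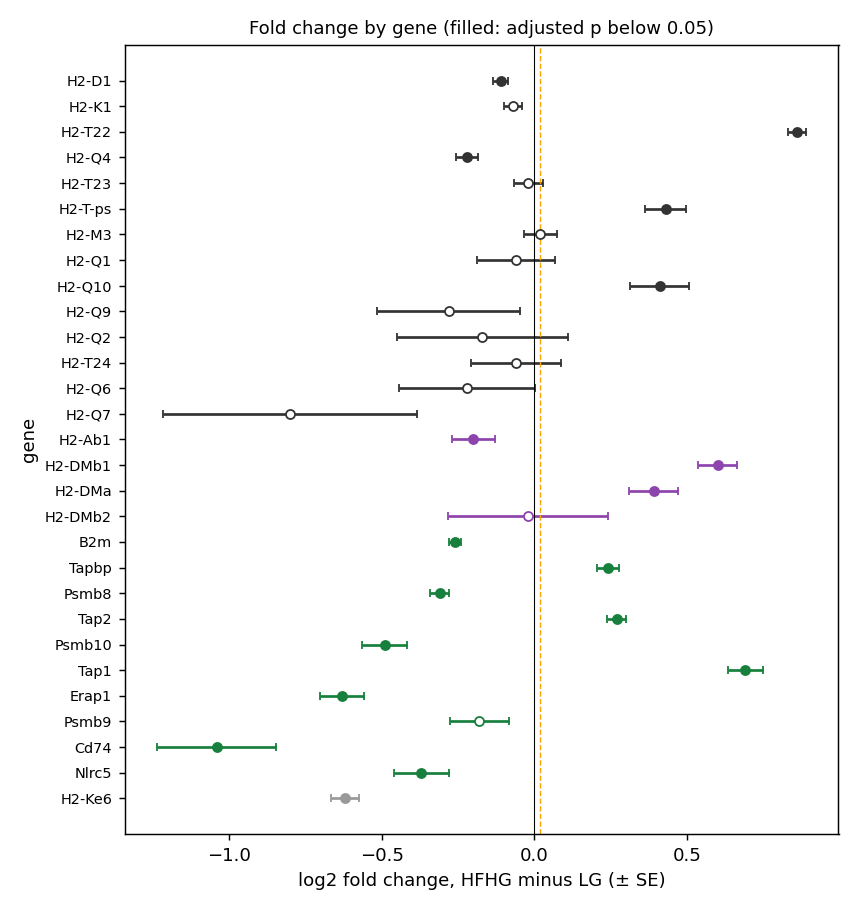
Log2 fold change of HFHG minus LG with its SE for the 29 tested members, filled where the limma adjusted p was below 0.05, black for class I, purple for class II, green for machinery and grey for H2-Ke6. Values run from -1.04 for Cd74 to 0.86 for H2-T22, with the transporter genes on the right and the proteasome subunits, Erap1 and B2m on the left. B2m loses its call and H2-D1 turns positive under quantile normalization.

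The remaining 16 members lay below the filter, and 10 of them had at most 20 recovered reads over all 8 libraries. Each was detected with at least 1 read somewhere, and a count of 0 allows up to 3 reads in a library, or 0.0803 to 0.0874 FPKM for a gene of 1000 bases, counting error only. The 8 of them above 0 in at least 4 libraries were H2-T3, H2-M2, H2-M5, H2-Aa, H2-Eb1, H2-Oa, H2-Ob and Ciita, and each was compared by a two-sided exact permutation test over 70 arrangements, which cannot give a p below 0.0286. H2-Ob, the beta chain of H2-O, which restrains H2-M, had 9, 14, 9 and 13 reads in HFHG and 5, 2, 0 and 1 in LG. Its groups did not overlap and it alone reached that smallest value (exact permutation p = 0.0286, not adjusted for the 8 tests). The partner chain H2-Oa had 0, 0, 1 and 3 reads in HFHG and 0, 0, 1 and 9 in LG (exact permutation p = 0.714). H2-Eb1, the beta chain of I-E, had 16, 17, 19 and 14 reads in HFHG and 17, 5, 12 and 14 in LG (exact permutation p = 0.229). H2-M2 had 9 to 25 reads in HFHG and 15 to 36 in LG (exact permutation p = 0.286), H2-M5 had 7 reads summed in HFHG and 13 in LG (exact permutation p = 0.343), and the test of H2-Aa gave an exact permutation p of 0.171. The 8 others, H2-Eb2, H2-M1, H2-M9, H2-M11 and the H2-M10 genes 1 to 4 by their suffix, had between 1 and 6 recovered reads in all. These are the smallest whole counts that fit the FPKM. The lengths recovered for H2-M11 (327 bases) and H2-M10.2 (495) fell short of their longest GENCODE transcripts (1006 and 1113). Their true reads may therefore be more.

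H2-T3, the thymus leukaemia antigen, a nonclassical class I gene on chromosome 17 (36185571 to 36190151, minus strand), was many times higher in some libraries than in others of the same medium. It had 1, 283, 312 and 21 reads in HFHG and 3, 6, 2 and 336 in LG. HFHG replicates 2 and 3 and LG replicate 4 stood at 3.67, 3.98 and 4.33 FPKM, while the 5 other libraries lay at or below 0.264. The pattern crossed the 2 media, and no difference between them was detected (exact permutation p = 0.83). No other gene of the table parted these 3 libraries from the other 5 as widely, with a gap of 3.37 on the log2 scale for H2-T3 and 0.95 for the next gene, Defb23. This split was noticed in the data and then looked up across genes.

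**Figure D5:**
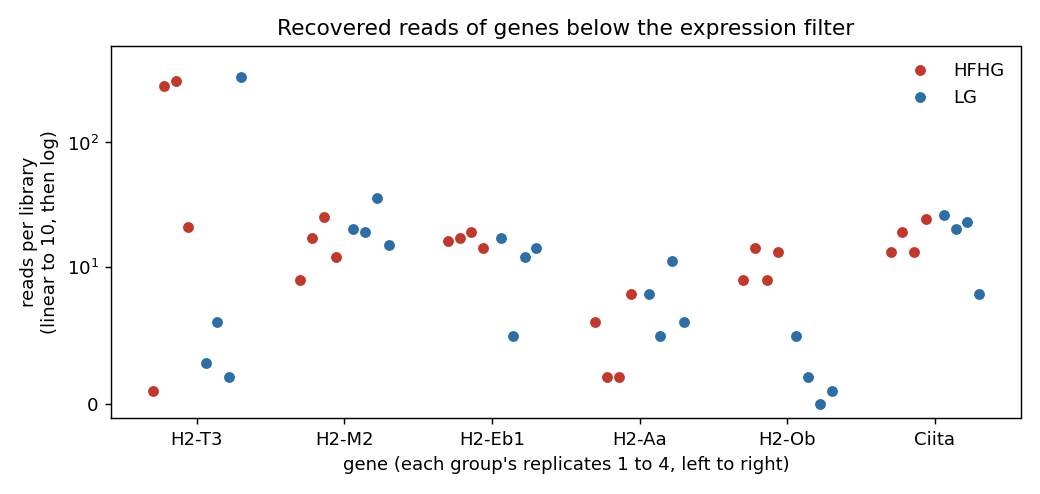
Recovered reads per library, on an axis that is linear to 10 and logarithmic above, for 6 members below the filter, with HFHG replicates 1 to 4 and then LG replicates 1 to 4 from left to right. H2-T3 shows 283 and 312 reads in HFHG replicates 2 and 3 and 336 in LG replicate 4, and H2-Ob shows 9 to 14 reads in HFHG and 0 to 5 in LG.

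H2-Ke6, which encodes a short-chain dehydrogenase and takes no part in antigen presentation, measured 8.13 to 8.88 FPKM in HFHG and 12.7 to 13.9 in LG, a difference of -0.62 ± 0.0466 (limma adjusted p = 1.34e-07). In GENCODE 92% of its 100-base windows are shared with the readthrough transcript Gm20427, so its reads cannot be told from that gene's.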

How the data were processed

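TSC libraries of 2 media, 4 in HFHG (25.5 mM glucose with 300 µM palmitic acid) and 4 in LG, were grouped by the sample titles, with doses and days from the study's methods. The authors deposited FPKM values of 19301 genes, made from stranded mRNA libraries. The submitters' processing notes name HISAT2 2.1.0 and build mm10. The counting program, annotation version and filters are not given in the sources used here. From low values the read total of each library was recovered, giving 34308108 to 37362725 reads. All FPKM of 19301 of 19301 genes (100%) came back as whole reads (tolerance 0.0001 reads). The length of each gene was the smallest that made its reads whole, so this return is no check for genes seen in few libraries. Their reads are the smallest counts that fit.

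From the deposited FPKM, limma 3.58.1 (R 4.3.3, empirical Bayes with a trend) tested log2(FPKM + 0.1) for genes at 0.5 FPKM or more in at least 4 libraries, with the Benjamini-Hochberg adjustment over 11710 genes. The step was tested on simulated data. Members below the filter and above 0 in 4 or more libraries had an exact permutation test of the FPKM. Every tested member is named. From other lists, at most the 3 called genes with the largest difference are named, plus Psmb5, Psmb6, Psmb7, Irf1, Ifng, Ptprc, Cd68 and Itgax, and some genes under this rule are not reported here. Further genes (Tapbpl, Lyz2, Cd163, Spi1, Mertk, Fcgr1, Tnmd and Ifi30) were named after their values were seen. H2-Ke6 was kept apart from the class I genes, among which the design had placed every H2 name outside the class II list. The members and lists were chosen with earlier results of these data known. Shared sequence was measured as 100-base windows of GENCODE M21 transcripts, and positions are RefSeq, GRCm38.p6. Shares of exon bases that overlap other genes are also from GENCODE M21. Its exon lengths differ from those behind the FPKM, for Tap2 3781 against 2490 bases, so the shares may differ for the exons counted. The closing section gives the alternatives tried: pseudocount, filter, scaling, replicate block, a robust fit, left-out libraries and, chosen after seeing the data, limma's voom on the recovered reads.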

Additional observations from a re-analysis of the deposited data

Results flagged for a closer look

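Among 66 groups of 4 libraries, for the 33 members with at least 100 reads in all, 2 had a library far from the rest of its group by Dixon's criterion, and chance gives about 1 in 20. H2-T3 in LG replicate 4 measured 4.33 FPKM, with a gap of 0.988 of the group's range to the next LG library. H2-T24 in HFHG replicate 4 measured 1.28 FPKM, with a gap of 0.887 of the range. The first 2 principal components of all genes set LG replicate 4 apart from the other LG libraries on the second component, and without it the calls of the members were kept except that of H2-Ab1 (adjusted p = 0.08).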

How the results depend on the processing

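The counts of called genes moved by at most 1.5 times under every alternative run, for all genes (7177 to 7839 against 7592), class I, class II and machinery. Over the 29 members, 484 of the 519 recomputed differences kept their direction and their side of the threshold, 18 turned sign, 10 passed and 7 lost the threshold. Quantile normalization turned H2-D1 (0.232), H2-K1 (0.0553) and H2-T23 (0.0224). Rescaling to the same FPKM sum, which moved the median of all genes to 0.076, turned H2-DMb2 (0.0336) and H2-T23 (0.0368), and median-ratio scaling turned H2-M3 (-0.0202). Leaving out 1 library at a time turned differences that were not called, with ranges of -0.251 to 0.247 for H2-DMb2, -0.0194 to 0.0424 for H2-M3, -0.167 to 0.0411 for H2-Q1, -0.398 to 0.0706 for H2-Q2 and -0.0506 to 0.0184 for H2-T23. H2-Ab1 also lost its call with no filter (adjusted p = 0.0613) and with the same FPKM sum (0.078), and H2-K1 was called by voom on recovered reads (0.0288), which called 7780 of all genes. The causes were not tested. Replicate numbers did not pair the libraries (correlations of same-numbered deviations -0.0736 to -0.00558), and a fit with the replicate block called 7342 genes. For the 10 members with at most 20 recovered reads, depth sets what can be seen.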
